A study of Mus musculus with 8 samples.

Results

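The transcripts described here are those of 9 structural apolipoprotein genes, Apoa1, Apoa2, Apoa4, Apob, Apoc1, Apoc4, Apoe, Apof and Apom, and of Mttp, the gene of the microsomal triglyceride transfer protein. They were taken by name, 10 genes of the 25690 in the deposited table, and all 10 were above the expression filter. Total RNA from the livers of hepatic Foxo1 knockout mice (4 libraries, numbered 3, 9, 10 and 11 in their titles) was set against that of wildtype control mice (4 libraries, numbered 1, 3, 10 and 12). Foxo1 encodes a forkhead family activator of transcription that leaves the nucleus when insulin signals. Strain, age, sex, feeding state and how the gene was deleted were not stated in the sources used here. Nor do the labels say whether each library was a different animal, so the tests measure the spread between these libraries, which may be technical.

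Lipoproteins carry triglyceride and cholesterol in blood, wrapped in a shell of phospholipid and apolipoproteins. Apolipoprotein B is the one large, non-exchangeable protein of each very low density lipoprotein (VLDL), and Mttp loads it with lipid in the endoplasmic reticulum of the hepatocyte. The small exchangeable apolipoproteins A, C and E sit on the particle surface and move between VLDL, remnants and high density lipoprotein (HDL), where they act on lipases, lipid transfer and receptors. Mttp and Apoc3 are known in the field as genes on which FoxO1 acts.

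The genes lie in 7 places of the mouse genome (mm10, coordinates of GENCODE M21, all protein-coding). Apoa2 is on chromosome 1 from 171225054 to 171226379, plus strand, and Mttp on chromosome 3 from 138089854 to 138144968, minus strand. Apoc4 (19678083 to 19681479), Apoc1 (19689481 to 19692660) and Apoe (19696109 to 19699188) share a cluster with Apoc2 on the minus strand of chromosome 7. Apoa1 (46228580 to 46230466) and Apoa4 (46240696 to 46243459), both on the plus strand, share a cluster on chromosome 9 with Apoc3 and Apoa5. Apof is on chromosome 10 from 128268671 to 128270153, plus strand, Apob on chromosome 12 from 7977648 to 8016835, plus strand, and Apom on chromosome 17 from 35128997 to 35132050, minus strand. Their coding transcripts differ widely in length, which matters below: the median coding transcript was 432 bases for Apoc1, 481 for Apoa2, 538 for Apoc4, 817 for Apoe, 1013 for Apom and 3517.5 for Mttp, and the longest Apob transcript was 13934 bases.

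The stretches before the start sites of Apoa2, Apoc4 and Apoe, whose transcripts were below the wildtype range in all 4 knockout libraries, are shown with that of Apoa1, whose transcripts were not. They are RefSeq promoter sequences on GRCm38.p6, 5′ to 3′ on the gene's strand, ending at the last base before the first annotated exon, with matches to the motifs named below in capitals.
Apoa2, chr1:171224804-171225053, plus strand: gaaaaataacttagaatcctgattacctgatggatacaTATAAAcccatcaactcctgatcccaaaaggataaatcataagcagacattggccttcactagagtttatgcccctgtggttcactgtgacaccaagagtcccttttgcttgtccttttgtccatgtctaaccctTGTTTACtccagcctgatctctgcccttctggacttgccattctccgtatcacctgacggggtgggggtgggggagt
Apoc4, chr7:19681480-19681710, minus strand: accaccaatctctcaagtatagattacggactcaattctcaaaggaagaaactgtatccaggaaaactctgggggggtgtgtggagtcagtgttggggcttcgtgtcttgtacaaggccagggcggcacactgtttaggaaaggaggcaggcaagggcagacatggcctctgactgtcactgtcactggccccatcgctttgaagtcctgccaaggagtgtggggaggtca
Apoe, chr7:19699189-19699438, minus strand: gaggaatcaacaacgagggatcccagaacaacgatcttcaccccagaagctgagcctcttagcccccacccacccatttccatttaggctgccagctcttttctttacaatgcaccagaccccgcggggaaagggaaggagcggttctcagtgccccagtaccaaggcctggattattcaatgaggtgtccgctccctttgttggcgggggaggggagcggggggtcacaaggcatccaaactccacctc
Apoa1, chr9:46228380-46228579, plus strand: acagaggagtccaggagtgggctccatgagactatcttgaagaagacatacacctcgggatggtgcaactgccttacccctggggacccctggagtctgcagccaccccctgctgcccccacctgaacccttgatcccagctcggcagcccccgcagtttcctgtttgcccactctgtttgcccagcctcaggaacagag

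Both strands of the 250 bases before each start were searched for the forkhead motifs GTAAACA and TGTTTTG, the HNF4 motifs CAAAGTCCA and CAAAGGTCA and the TATA motif TATAAA. RefSeq held a promoter for 8 of the 10 genes, all but Apoc1 and Apof. The Apoa2 stretch held GTAAACA, read as TGTTTAC on the plus strand, from 77 to 71 bases before the start at 171225054. The stretch before another annotated start of Apoa2, at 171221564, held none of the motifs. Apoa2 was the 1 gene of the 8 with an exact match to GTAAACA or TGTTTTG. Variants of these motifs were not searched for, so the other stretches may still hold forkhead-like sequence. Among all 32851 RefSeq promoters 3.17% held GTAAACA, and TGTTTTG was in 5.56% of them. A match to TATAAA, which 12.4% of all promoters held, was at 60 to 55 bases before the start of Apob. Another was at 212 to 207 bases before the Apoa2 start at 171225054. Of the 3 annotated starts of Apoe an inner one, at 19698621, had a match on each strand, which overlapped. The HNF4 motifs, in 0.384% and 0.426% of all promoters, were in no stretch of the 8 genes. The stretches are not all alike. That of Mttp began inside an annotated exon, as its RefSeq start was 1550 bases from its GENCODE start. The Apom stretch held 1 base before an exon and the Apoa4 stretch 102. For Mttp and Apom the search therefore does not cover the sequence upstream of the gene, and for Apoa4 it covers little. A match is a run of letters and not a measured binding site.

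Foxo1 was at 3.21, 3.01, 3.38 and 3.81 FPKM in wildtypes 1, 3, 10 and 12, where FPKM is a level corrected for the length of the transcript and the size of the library, and at 0.224, 0.267, 0.375 and 0.212 in knockouts 3, 9, 10 and 11, as the labels have it (log2 change -1.78, limma adjusted p = 3.62e-05). Depth, read from the FPKM value of a single fragment, was estimated at 27.1 M to 35.2 M fragments per library. Among the 10250 genes whose mean reached 1 FPKM, limma on log2(FPKM + 1) with Benjamini-Hochberg adjustment called 11.7% lower and 2.7% higher in the knockout at an adjusted p under 0.05, and the same threshold is used throughout. The split depended on scaling: with median-ratio scaling it was 7.66% lower and 4.1% higher, with quantile normalization 6.36% and 4.59%, and with the trend along transcript length removed 5.76% and 5.08%. Knockouts 3 and 11 had high acute phase transcripts, blood protein genes of inflammation: Saa1 was at 28413 FPKM in the first and 33012 in the second. Elsewhere it ranged from 78.3 FPKM, in wildtype, to 573, in knockout 9. Of 6 hepatocyte markers tested 1 was called, Hnf4a, which was higher, and 2 had an unadjusted limma p under 0.05. Alb, among the 6, was listed at 0 in knockout 10, which can be a failed estimate, so its test says little. In the other libraries Alb was at 20877 to 27822 FPKM. The enterocyte genes Cdx1 and Cdx2 were listed at 0 in every library. Of 4 exocrine pancreas markers Cpa1 was listed at 0 throughout, Pnlip and Prss2 were at most 0.0510 FPKM, and the 1 tested, the elastase gene Cela1, fell from 52.1 to 66.6 FPKM in wildtype to 29.3 to 44.9 in knockout libraries (log2 change -0.73, limma adjusted p = 0.00985). Enterocyte markers matter because the intestine also makes Apoa1, Apoa4, Apob and Mttp, and of 2 tested 1 fell, Fabp2, from 87.6 to 114 FPKM in wildtype to 20.2, 58.5, 71.5 and 25.1 in knockouts 3, 9, 10 and 11. The part of these differences in the results below was not tested, and in bulk liver fewer cells of a type and less RNA per cell cannot be told apart.

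In the knockout liver the transcripts of Apoa2, Apoc1 and Apoc4 fell, by 2.12, 1.87 and 1.51-fold in mean FPKM. Apoe was 1.46-fold lower in the mean without passing the test. Transcripts of Apob and Mttp, genes of VLDL assembly, and of Apoa1 differed in the mean by less than the spread between libraries. Of the 10 genes 3 were called lower and 0 higher, beside 11.7% and 2.7% of all tested genes, and the median log2 change of the 10 was -0.18, beside -0.08 over all tested genes. At an unadjusted limma p under 0.05, 4 genes were lower and 1, Apof, was higher, beside 22.7% and 7.77% of all tested genes at that threshold. In 4 of the 10, Apoa2, Apoc1, Apoc4 and Apoe, the knockout libraries were all below the wildtype libraries, as they were in 16.5% of all tested genes, and in 0 of the 10 were they all above, against 4.83%.

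**Figure D1:**
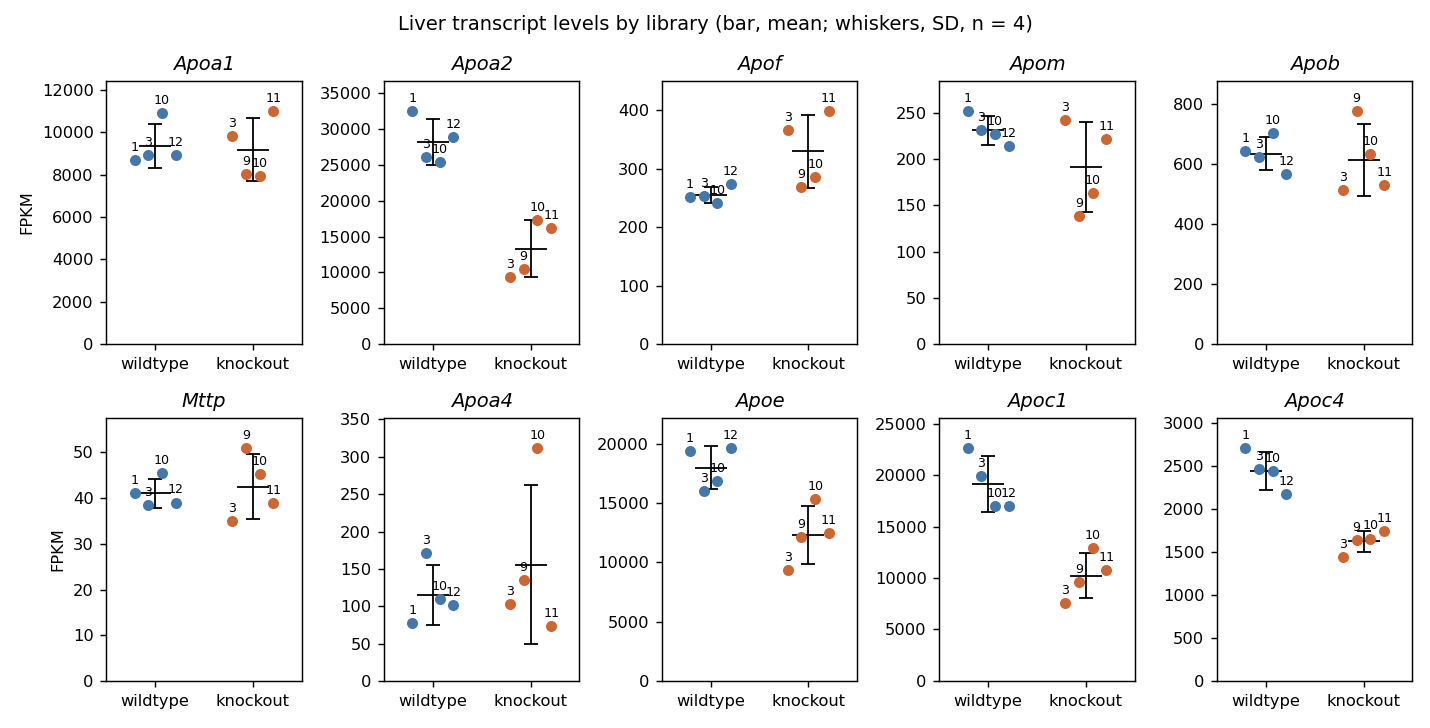
FPKM of each gene by library, wildtype in blue and knockout in orange, with the library number beside each point, the mean as a horizontal bar and the SD as whiskers (n = 4 per group). Apoa2, Apoe, Apoc1 and Apoc4 show no overlap between the groups, while the groups overlap for Apoa1, Apob and Mttp.

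Several of these genes were among the most abundant transcripts of the liver. By wildtype mean FPKM, a level per length, the order was Apoa2, Apoc1, Apoe, Apoa1, Apoc4, Apob, Apof, Apom, Apoa4 and Mttp, from 28196 down to 41.1. Apoa2 ranked 2 among all tested genes, Apoc1 8, Apoe 9 and Apoa1 13. Neighbours in that order had separate wildtype ranges, except Apoc1 and Apoe, and Apof and Apom, whose ranges overlapped. In the knockout liver the first 4 drew together: their means were 13329 for Apoa2, 12328 for Apoe, 10219 for Apoc1 and 9183 for Apoa1, with overlapping ranges. Summed, the 10 transcripts made up 8.62% to 10.1% of all FPKM in the wildtype libraries and 4.54%, 5.25%, 7.02% and 5.96% in knockouts 3, 9, 10 and 11.

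Among the HDL apolipoproteins, Apoa2 encodes the second most abundant HDL protein, which displaces other apolipoproteins and modulates lipases on the particle. Apoa2 was at 32467, 26035, 25379 and 28904 FPKM in wildtypes 1, 3, 10 and 12 and at 9429, 10415, 17249 and 16224 in knockouts 3, 9, 10 and 11. The groups were well apart, and knockouts 3 and 9 were the lowest. It went from 28196 ± 3233 to 13329 ± 3977 FPKM (SD, n = 4), a log2 change of -1.12 (SE 0.22, limma adjusted p = 0.0112), and 0.751% of tested genes had a more negative change.

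Apoa1 encodes the main structural protein of HDL and the activator of LCAT, the enzyme that esterifies its cholesterol. Its levels were 8672, 8920, 10918 and 8943 FPKM in wildtypes 1, 3, 10 and 12 and 9816, 8012, 7917 and 10986 in knockouts 3, 9, 10 and 11. The groups overlapped, with 2 knockout libraries below and 1 above the wildtype range. The log2 change was -0.04 (SE 0.15, limma adjusted p = 0.901) with a 95% interval from -0.38 to 0.30. The ratio of Apoa2 to Apoa1 in FPKM, taken within each library, was 3.74, 2.92, 2.32 and 3.23 in wildtypes 1, 3, 10 and 12 and 0.961, 1.30, 2.18 and 1.48 in knockouts 3, 9, 10 and 11. It was lower in every knockout than in every wildtype library, with knockout 10 close to wildtype 10.

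Apom encodes the HDL-bound carrier of sphingosine-1-phosphate. It was at 251, 231, 227 and 214 FPKM in wildtypes 1, 3, 10 and 12 and at 242, 139, 164 and 221 in knockouts 3, 9, 10 and 11. Knockouts 9 and 10 were below the wildtype range, and knockouts 3 and 11, those with high acute phase transcripts, were within it. The log2 change of -0.30 did not pass (SE 0.17, limma adjusted p = 0.267), while without knockouts 3 and 11 Apom fell by 0.61 (limma adjusted p = 0.0231). With the length trend removed the values were -0.02 in all libraries and -0.36 without those knockouts (limma adjusted p = 0.0912).

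Apof encodes the lipid transfer inhibitor protein found on HDL and low density lipoprotein. Its levels were 252, 254, 241 and 275 FPKM in wildtypes 1, 3, 10 and 12 and 367, 269, 285 and 398 in knockouts 3, 9, 10 and 11. The highest were again knockouts 3 and 11, and knockout 9 was inside the wildtype range. The log2 change was 0.35 (SE 0.14, limma adjusted p = 0.117), and without knockouts 3 and 11 it was 0.12 (limma adjusted p = 0.457). Apof did pass with the trend along the longest transcript removed (0.59, limma adjusted p = 0.0349) and with quantile normalization (0.58, limma adjusted p = 0.0253), 2 of 24 alternative analyses. It did not pass with the median coding transcript as the length (0.50, limma adjusted p = 0.0631). Nor did it with the length trend removed without knockouts 3 and 11 (0.32, limma adjusted p = 0.0606).

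Of the 3 described genes in the chromosome 7 cluster 2 were called lower, beside 11.7% of all tested genes. The third was in the same direction, and Apoc2 of the same cluster, given below, was not called. Apoc1 encodes a small inhibitor of lipoprotein lipase and of receptor uptake. It was at 22643, 19944, 17001 and 17022 FPKM in wildtypes 1, 3, 10 and 12 and at 7602, 9633, 12886 and 10757 in knockouts 3, 9, 10 and 11. The gap between the groups was clear, and knockout 3 was the lowest. It went from 19152 ± 2706 to 10219 ± 2206 FPKM (SD, n = 4), a log2 change of -0.92 (SE 0.19, limma adjusted p = 0.0124).

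Apoc4 encodes a minor VLDL protein of the same family. Its values were 2709, 2463, 2440 and 2169 FPKM in wildtypes 1, 3, 10 and 12 and 1445, 1642, 1656 and 1743 in knockouts 3, 9, 10 and 11. The knockout libraries lay close together, with a coefficient of variation of 7.77% against 29.8% for Apoa2. The change was -0.59 on the log2 scale (SE 0.11, limma adjusted p = 0.0103). Apoc4 overlaps Gm44805, a protein-coding gene on the same strand not analysed here, and ends 142 bases from Apoc2, so its reads can be shared with these neighbours. Apoc2, the activator of lipoprotein lipase, was at 408 ± 50.3 and 348 ± 51.4 FPKM (SD, n = 4) and did not pass (log2 change -0.24, limma adjusted p = 0.288).

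Apoe encodes the ligand through which hepatocytes take up remnant particles. It was at 19411, 16014, 16893 and 19661 FPKM in wildtypes 1, 3, 10 and 12 and at 9351, 12167, 15331 and 12465 in knockouts 3, 9, 10 and 11. Every knockout library was below every wildtype library, knockout 10 by the narrowest margin. The log2 change was -0.56 (SE 0.17, limma adjusted p = 0.0558), just short of the threshold, and Apoe passed in 6 of 24 alternative analyses, among them without knockout 10 (-0.67, limma adjusted p = 0.0290). Macrophages also make Apoe: of 7 Kupffer cell markers tested 0 were called by limma (0 at an unadjusted p under 0.05). The summed level of all 8 listed markers was 57.8 to 79.2 FPKM in wildtype and 47.6 to 79.0 in knockout libraries. The ratio of Apoc1 to Apoe was 0.866 to 1.25 in the wildtype and 0.792 to 0.863 in the knockout libraries.

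For VLDL assembly, Apob was at 645, 625, 704 and 569 FPKM in wildtypes 1, 3, 10 and 12 and at 513, 777, 635 and 532 in knockouts 3, 9, 10 and 11. The knockout libraries spread to both sides of the wildtype range, with knockout 9 above it and knockouts 3 and 11 below. The log2 change was -0.06 (SE 0.14, limma adjusted p = 0.801), with a 95% interval from -0.39 to 0.26. Mttp was at 41.2, 38.6, 45.5 and 39.1 FPKM in wildtypes 1, 3, 10 and 12 and at 35.0, 51.0, 45.3 and 38.8 in knockouts 3, 9, 10 and 11. Knockout 9 was again the highest and knockout 3 the lowest. The log2 change of 0.04 did not pass (SE 0.12, limma adjusted p = 0.873), with a 95% interval from -0.24 to 0.31. The ratio of Mttp to Apob varied little, from 0.0618 to 0.0687 in wildtype and from 0.0656 to 0.0730 in knockout libraries. Mttp overlaps Trmt10a and the antisense gene Gm43691 on the other strand, and without a stated strand setting such reads cannot be told apart.

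Apoa4 encodes a lipid-binding apolipoprotein that liver makes in variable amounts. Its levels were 76.9, 171, 110 and 102 FPKM in wildtypes 1, 3, 10 and 12 and 103, 135, 312 and 73.5 in knockouts 3, 9, 10 and 11. It was the most variable of the 10, and the difference in means came from knockout 10: the log2 change was 0.28 in all libraries (SE 0.41, limma adjusted p = 0.693) and -0.13 without knockout 10 (limma adjusted p = 0.804). Its neighbour Apoa1 was low in knockout 10, and Apoa5 of the same cluster was at 344 ± 33.4 and 353 ± 52.5 FPKM (SD, n = 4; log2 change 0.03, limma adjusted p = 0.902). Apoa4 overlaps the antisense gene Gm10680 and the gene Gm47528, both on the other strand, with the same limit on strand.

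Transcript length moved with the falls. Of the 1015 tested genes with the shortest transcripts, 85 to 1155 bases, 36.1% were called lower and 0.788% higher, with a median log2 change of -0.31. Of the 4 described genes among them, Apoa2 and Apoc1 were called lower and Apoa1 and Apom were not. In abundance, 19 of the 95 genes whose mean reached 1000 FPKM were called lower, and 3 of the 5 described genes among them, Apoa2, Apoc1 and Apoc4, were. Both limits were met by 37 genes, Apoa1, Apoa2 and Apoc1 among them. Of these 37, 7 (18.9%) were called lower and 0 higher, with a median log2 change of -0.17. By median coding transcript (the longest transcript where none is coding), 584 tested genes were under 600 bases. Of these, 29.5% were called lower and 2.4% higher, with a median log2 change of -0.25. The described genes among them were Apoa2, Apoc1 and Apoc4. When a smooth trend of each library's deviations along the longest transcript was removed, Apoa2 (-0.70, limma adjusted p = 0.0445) and Apoc4 (-0.47, limma adjusted p = 0.0335) remained called and Apoc1 did not (-0.50, limma adjusted p = 0.0719). The longest Apoc4 transcript is a 2096-base form that retains an intron, and with the median coding transcript as the length Apoa2 (-0.86, limma adjusted p = 0.0280) and Apoc1 (-0.64, limma adjusted p = 0.0398) were called and Apoc4 was not (-0.34, limma adjusted p = 0.0596). On the scale with the trend along the longest transcript removed, the groups did not overlap for Apoa2, Apoc1 and Apoc4. Nor did they for Apof in the other direction, while Apoe overlapped. The margin for Apoc1 was narrow, with knockout 10 at -0.202 and wildtype 12 at -0.177 from the wildtype mean in log2. The share of all tested genes without overlap on this scale was not counted, so no background stands beside these genes.

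**Figure D2:**
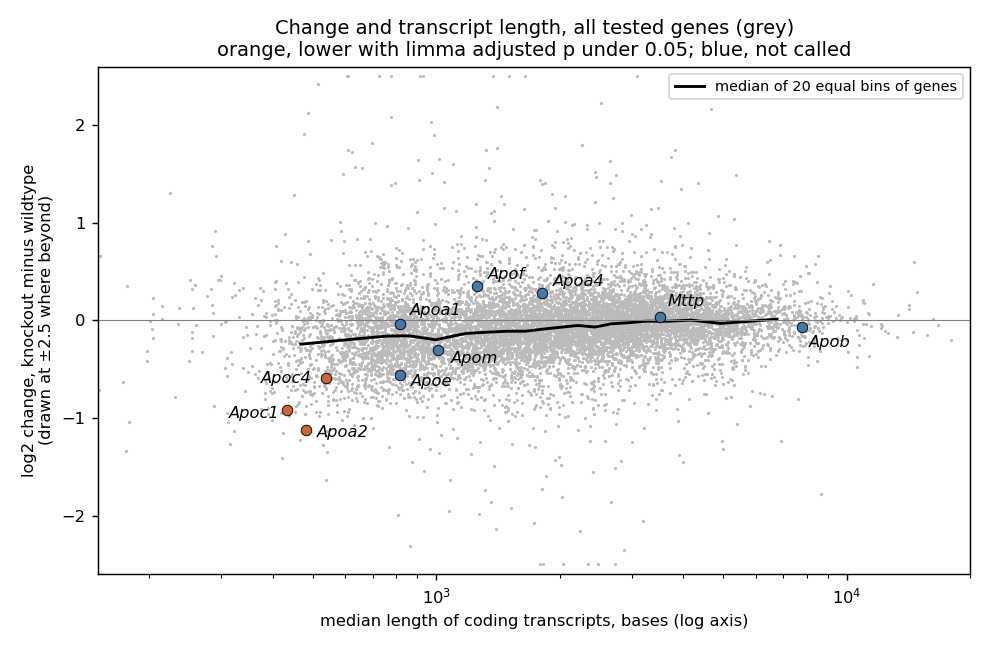
Log2 change against the median length of the coding transcripts (log axis) for all tested genes in grey and the 10 described genes as large points, orange where called lower. The running median falls below 0 toward short transcripts, and Apoa2, Apoc1 and Apoc4, at 481, 432 and 538 bases, lie below it.

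Apoa2, Apoc1 and Apoc4 were also called without knockouts 3 and 11, at -1.07, -0.77 and -0.56 on the log2 scale (limma adjusted p = 0.0277, 0.0392 and 0.0280). With these libraries left out and the length trend removed as well, 0 of the 10 passed, and the same 3 changes were -0.65, -0.36 and -0.49 (limma adjusted p = 0.0920, 0.195 and 0.0708). With no filter on low values, 19052 genes were tested and Apoa2 (limma adjusted p = 0.0777) and Apoc1 (limma adjusted p = 0.0822) did not pass.

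**Figure D3:**
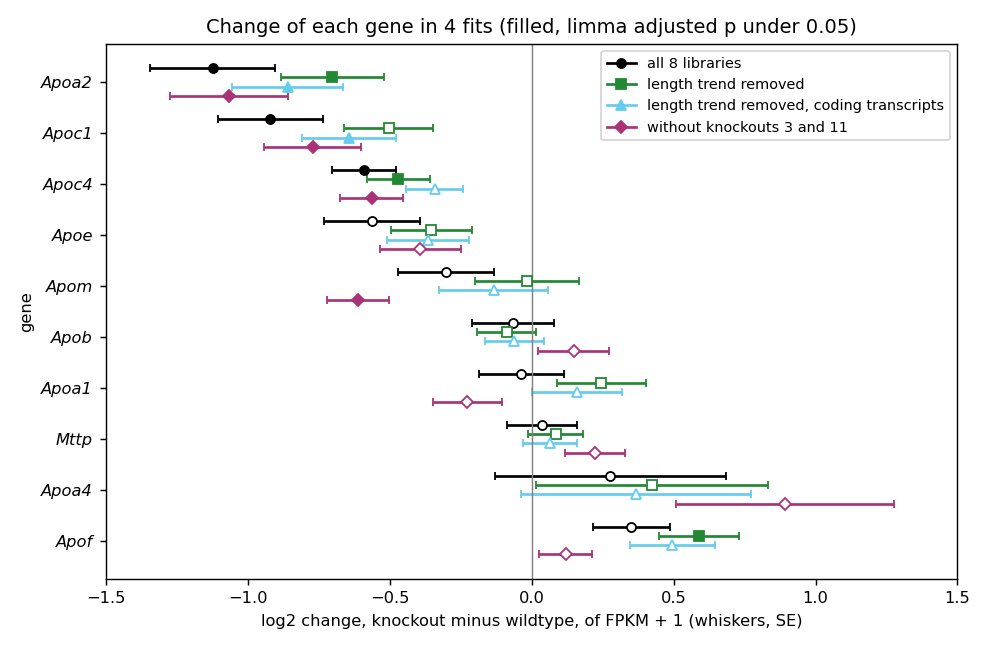
Log2 change (knockout minus wildtype, of FPKM + 1) of each gene with its SE in 4 analyses, filled where limma's adjusted p was under 0.05. Apoa2 is negative and filled in all 4, Apoc1 and Apoc4 are each open in 1, and Apom is filled only without knockouts 3 and 11.

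By Pearson correlation of log2(FPKM + 1) over the 8 libraries, the tested genes most like Apoa2 were Cox5b and Nqo2 (both r = 0.995) and Mbl2 (0.993). Rps19 and Rpl38 were most like Apoc4 (0.994 and 0.988) and Mrgbp most like Apoc1 (0.990). For Apof the first was S100a9, a neutrophil gene (0.994), whose FPKM was 24.3 in knockout 3, 57.5 in knockout 11 and up to 2.63 elsewhere, followed by Apon, another lipoprotein-associated gene (0.992). Rb1cc1 and Ppfia1 were most like Apob (both 0.984), Uba1 most like Mttp (0.982), Sat2 most like Apom (0.972), Cldn2 most like Apoa4 (0.965) and Vnn3 most like Apoa1 (0.920). Among the 10 genes themselves r was 0.967 between Apoa2 and Apoc1, 0.944 between Apoa2 and Apoe, and 0.915 between Apob and Mttp. These values pool both genotypes and genes share the libraries, so they are descriptions, with the highest of 10250 genes high by selection.

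The other genes of lipoprotein assembly, remodelling and uptake were read from the same fit. Of 64 tested companion genes 6 were lower and 5 higher, beside 11.7% and 2.7% of all tested genes, with a median log2 change of 0.06. Among the other apolipoproteins 2 of 10 were lower and 1 higher. Apoc3, an inhibitor of triglyceride clearance in the Apoa1 cluster, went from 5686 ± 432 to 3467 ± 584 FPKM (SD, n = 4), a log2 change of -0.73 (limma adjusted p = 0.0115). With the trend along the longest transcript removed its p missed the threshold (-0.36, limma adjusted p = 0.0746). With the median coding transcript as the length Apoc3 passed (-0.46, limma adjusted p = 0.0440). Apool, a mitochondrial protein gene despite its name, fell by 0.35 on the log2 scale (limma adjusted p = 0.0247) but passed in 12 of 24 alternative analyses, and not with the length trend removed (-0.25, limma adjusted p = 0.0601) or the GC trend removed (-0.22, limma adjusted p = 0.142). Clu, which encodes the HDL-associated chaperone clusterin, rose by 0.69 (limma adjusted p = 0.0227). It passed in 17 of 24 alternative analyses, missed the threshold without any 1 of the 4 wildtype libraries (limma adjusted p = 0.0526 to 0.0598) or without knockout 11 (0.62, limma adjusted p = 0.0519), and rose by 0.40 without knockouts 3 and 11 (limma adjusted p = 0.0485). The wildtype range of Clu was 456 to 503 FPKM, and knockouts 3, 9, 10 and 11 had 1005, 602, 677 and 924.

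In assembly and secretion 1 of 22 was lower and 0 higher (at an unadjusted limma p under 0.05, 3 lower and 1 higher, beside 22.7% and 7.77% of all tested genes). This was Sar1b, the small GTPase of the coat that exports lipoprotein cargo from the endoplasmic reticulum, with a log2 change of -0.45 (limma adjusted p = 0.00985), at 176 to 194 FPKM in wildtype and 129 to 144 in knockout libraries. With the length trend removed it did not pass (-0.20, limma adjusted p = 0.107). P4hb, the partner subunit of Mttp, was at 486 ± 17.7 and 475 ± 76.6 FPKM (SD, n = 4; log2 change -0.05, limma adjusted p = 0.833). In HDL formation and remodelling 2 of 10 were lower and 0 higher by limma (2 and 1 at an unadjusted p under 0.05, where all tested genes had 22.7% and 7.77%): hepatic lipase, Lipc, at 109 ± 12.1 and 59.3 ± 16.6 FPKM (log2 change -0.90, limma adjusted p = 0.0156), and the paraoxonase Pon1 (-0.52, limma adjusted p = 0.0408). Lipc was at -0.87 without wildtype 1, where its p missed the threshold (limma adjusted p = 0.0505), and at -0.59 without knockouts 3 and 11 (limma adjusted p = 0.0412). Pon1 passed in 7 of 24 alternative analyses. Abca1, the cholesterol exporter that forms HDL, did not pass (0.26, limma adjusted p = 0.323).

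Of 7 uptake genes 2 were higher and 1 lower, beside 2.7% and 11.7% of all tested genes. At an unadjusted limma p under 0.05, 3 were higher and 1 lower, beside 7.77% and 22.7%. The remnant receptor Lrp1 (0.50, limma adjusted p = 0.0480) and the lipolysis-stimulated receptor Lsr (0.67, limma adjusted p = 0.0363) rose. Neither passed without knockouts 3 and 11. The scavenger receptor Stab1 of sinusoidal endothelium fell (-1.02, limma adjusted p = 0.0148), but with knockouts 3 and 11 left out its p missed the threshold (-0.96, limma adjusted p = 0.0780). It is itself an endothelial marker, the 1 called of 5 tested, of which 3 had an unadjusted limma p under 0.05. The summed level of the other 5 listed endothelial markers was 21.5 to 25.0 FPKM in wildtype and 15.7 to 25.3 in knockout libraries. With Stab1 it was 49.3 to 65.0 and 27.5 to 49.3. The median log2 difference of all 6 from the wildtype mean was -0.31, -0.32, 0.034 and -0.3 in knockouts 3, 9, 10 and 11. In wildtype libraries it was -0.087 to 0.081. Of 15 transcription factors known for apolipoprotein genes 0 were lower and 2 higher by limma, beside 11.7% and 2.7% of all tested genes. The counts were the same at an unadjusted limma p under 0.05, beside 22.7% and 7.77%. The 2 higher were Hnf4a and Foxa3. Hnf4a, the hepatocyte nuclear receptor, was at 64.8 ± 6.39 and 87.8 ± 12.2 FPKM (0.43, limma adjusted p = 0.0494). Foxa3, a forkhead factor, rose by 0.54 on the log2 scale (limma adjusted p = 0.0413). Neither passed without knockouts 3 and 11, and Hnf4a passed in 9 and Foxa3 in 15 of 24 alternative analyses.

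**Figure D4:**
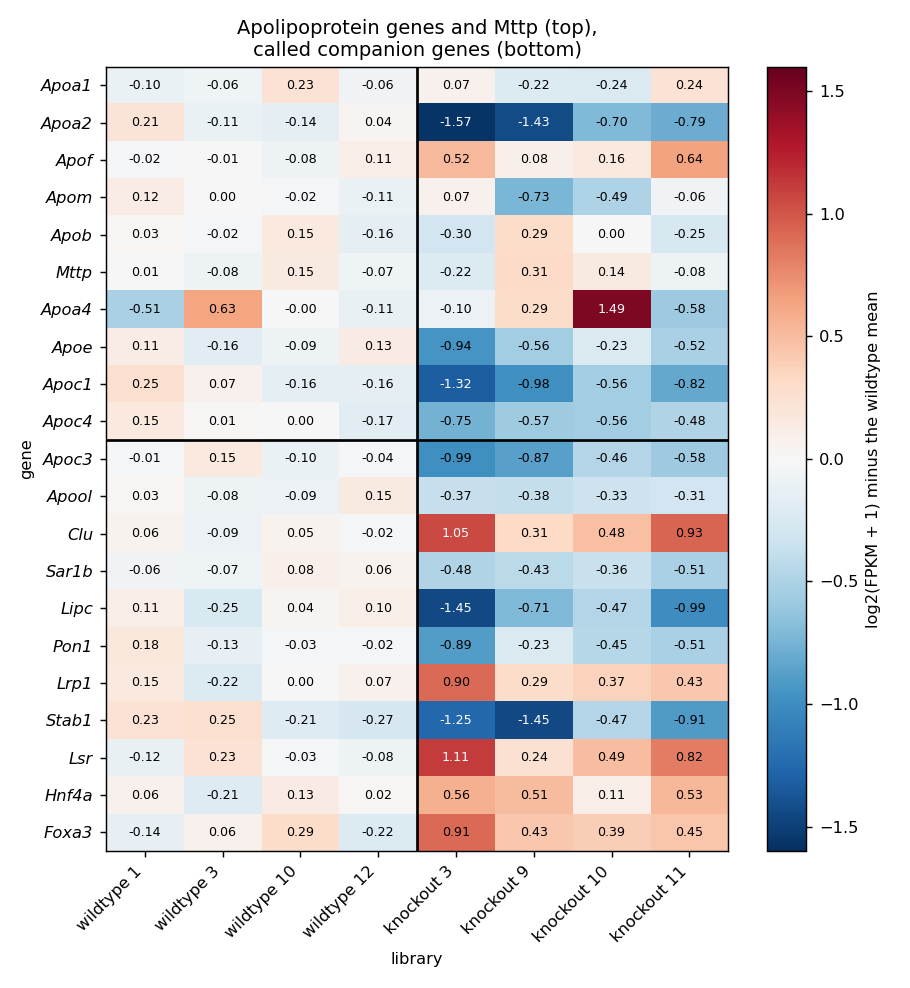
Difference of log2(FPKM + 1) from the wildtype mean in each library (colour and printed value) for the 10 described genes above the line and the 11 called companion genes below it. Apoa2, Apoc1, Apoc4 and Apoe are negative in all 4 knockout columns, Apoa4 reaches 1.49 in knockout 10, and Apof, Clu, Lrp1 and Lsr are highest in knockouts 3 and 11.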

How the data were processed

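The deposited table holds FPKM, fragments scaled by the authors to transcript length and mapped fragments. That these are FPKM follows from the values and the naming of Cufflinks, as the header holds library names alone. The submitters' processing notes name TopHat2 2.1.0, HTSeq, Cufflinks 2.2.1 and the build mm10, with no role or order for each. The sources used here do not give the annotation or the strand setting. Because FPKM cannot enter a count model, log values were tested. An exact 0 can be a failed estimate, as for Alb in knockout 10.

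Genes were named with GENCODE M21 (24807 of 25690), kept at a mean of at least 1 FPKM and fitted as log2(FPKM + 1) with limma 3.58.1 in R 4.3.3: genotype as the term, variances moderated with a mean trend, two-sided, Benjamini-Hochberg over 10250 genes. A pseudocount of 1 understates changes of low genes. The steps were tested on simulated data. For the length trend, a symmetric loess (span 0.5) along log2 transcript length was subtracted from each library's deviations, over 10149 genes. Pseudocount, filter, scaling, variance model, library weights, a block and left-out libraries were varied. The coding-transcript length and the length trend without knockouts 3 and 11 were added after seeing the data.

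The genes and lists were chosen with earlier results of these data known. The text names the 10 genes, the called companion genes and P4hb, Apoc2, Apoc3, Apoa5, Abca1 and Hnf4a, the closest genes by correlation, Foxo1 and acute phase genes. Some genes that this rule also names are not reported here. Fabp2 and the listed cell type markers were named after their values were seen. Promoters came from RefSeq (GRCm38.p6, the same build as mm10).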

Additional observations from a re-analysis of the deposited data

Results flagged for a closer look

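Of 20 groups of 4 libraries checked, 10 genes in each genotype, 1 had a library far from the other 3, and chance gives about 1 in 20. This was Apoa1 in wildtype 10, at 10918 FPKM, where the nearest other wildtype library was at 8943 and the lowest at 8672, so that the gap took 0.879 of the range. Without that library the log2 change of Apoa1 was 0.04 (limma adjusted p = 0.907).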

How the results depend on the processing

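Across 24 alternatives and 10 genes, 204 of the log2 changes kept their direction and their side of the threshold, 10 lost and 9 gained a call, and 17 changed sign. The cause was not tested. Of the 10 genes, 3 were lower in the main analysis, 1 was with no filter on low values, and 0 were with the length trend removed without knockouts 3 and 11. Leaving out 1 library at a time, 3 to 4 were lower and 0 higher. With quantile normalization or with the trend along the longest transcript removed 1 was higher, Apof, and with coding lengths 0 were.

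Among all genes, 277 were higher and 1195 lower. The counts were 420 and 784 with median-ratio scaling, 470 and 652 with quantile normalization, 516 and 585 with the length trend removed, 539 and 647 with coding lengths, 177 and 260 with the length trend removed without knockouts 3 and 11, 549 higher with the GC trend removed, and 653 lower without knockouts 3 and 11. Leaving out 1 library at a time, 105 (wildtype 1) to 361 (knockout 9) were higher and 598 (wildtype 1) to 1296 (knockout 9) lower. Of the companion genes, 5 higher and 6 lower, 0 were higher with no filter, 9 higher and 3 lower with quantile normalization, 2 lower with the length trend removed, 3 higher and 3 lower without knockouts 3 and 11, and 1 higher and 0 lower with both. Leaving out 1 library, 0 (wildtype 1 or 12) to 8 (knockout 9) were higher and 3 (wildtype 1) to 8 (knockout 9) lower.

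Direction changed in genes near 0. Apoa1 was at 0.055 with median-ratio scaling, 0.25 with the length trend removed, 0.16 with coding lengths, 0.0232 with the GC trend removed and 0.0230 with the length trend removed without knockouts 3 and 11. Apob was at 0.026 with median-ratio scaling, 0.26 with quantile normalization, 0.052 with the GC trend removed, 0.15 without knockouts 3 and 11, and 0.0226 with the length trend removed as well. Leaving out 1 library, Apoa1 ranged from -0.13 (knockout 11) to 0.040 (wildtype 10), Apob from -0.18 (knockout 9) to 0.015 (knockout 3), Apoa4 from -0.13 (knockout 10) to 0.56 (knockout 11) and Mttp from -0.053 (knockout 9) to 0.12 (knockout 3).

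With the number in the titles as a replicate block, 1 gene was higher and 1 lower, 0 of the 10 genes and 0 companion genes passed, and Apoa2, Apoc1, Apoc4 and Mttp were at -1.01, -0.90, -0.66 and -0.072. Numbers 3 and 10 alone occur in both groups, so in that fit the change rests on these libraries and few genes could be called. Deviations of the same-numbered libraries correlated at -0.00791 and 0.0224 across genes, so the numbers are not taken as pairs. The FPKM values come without counts or an error of counting, so precision rests on the spread of 4 libraries a group.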
